A study of Mus musculus with 21 samples.

Results

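Naive pluripotency transcription factors are regulators that mark mouse embryonic stem cells in a state close to the pre-implantation epiblast. The 10 factors described here, Klf2, Klf4, Klf5, Tbx3, Zfp42, Prdm14, Esrrb, Tfcp2l1, Nr0b1 and Dppa3, were taken by gene symbol, and all 10 were among the 20900 genes of the deposited table and among the 14666 genes tested. They were measured by RNA-seq of poly(A) RNA from E14 cells, an established embryonic stem cell line of the 129 strain that was grown in serum with leukaemia inhibitory factor (LIF). The control group was collected at 0 h. The other 6 groups were given an inhibitor of RNA polymerase I, which makes the large ribosomal RNAs, in changed medium for 2, 4 or 8 h. It was either BMH-21 or CX-5461, each at 1 µM. Each of the 7 groups held 3 replicates (21 libraries). All groups came from this 1 line, and the labels do not say whether replicates were separate cultures, so the p-values measure the spread between these samples, which may be technical. The control was a 0 h group for every time, so an inhibitor and the hours in changed medium cannot be told apart in a comparison with it.

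In mouse embryonic stem cells LIF acts through JAK kinases on the transcription factor STAT3, and BMP and WNT signals act beside it. These inputs converge on a network of factors that bind one another's genes together with OCT4 (Pou5f1), SOX2 and NANOG. Loss of the network's naive members is known as one of the first steps on the way out of naive pluripotency, followed by formative genes such as Otx2, Pou3f1 and Fgf5.

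The libraries held 46604397 to 62812641 reads over the genes of the table, recovered as whole reads from the deposited log2 values. Each value is a log2 CPM, with CPM counted per scaled library size, and is called the log2 value below. The scaling factors ran from 0.832 to 1.375, against 0.941 to 1.107 for median-ratio factors computed from the same genes. When libraries were instead centred on their medians, the differences from control moved for every gene alike, by the same amount that centring took out: -0.08, -0.15 and -0.21 at 2, 4 and 8 h of BMH-21, and -0.15, -0.16 and 0.22 at those times of CX-5461. Values below are those of the deposited scaling, and centred or median-ratio values are added for the members and for list genes or counts that moved most. The p53 targets Cdkn1a, Mdm2 and Ccng1, a check of the response, were higher than control in all 6 treated groups (3 of 3 genes each time).

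The summed level of 8 embryonic stem cell markers (Pou5f1, Sox2, Nanog, Sall4, Utf1, Lin28a, Dppa4 and Tdgf1) was 5062 to 5671 CPM in the control libraries, and no marker was at 0 reads in any group. In the 8 h groups the range was 2175 to 2439 (BMH-21) and, higher, 4431 to 4807 (CX-5461). The 7 trophectoderm markers summed to 83.2 to 90.7 CPM in control. At 4 h the sum was lower, at 56.4 to 70.4 (BMH-21) and 52.3 to 64.2 (CX-5461). At 8 h it was 125 to 150 (BMH-21) and 127 to 151 (CX-5461). In these 8 h groups 5 of the 6 tested were higher than control with each inhibitor, beside 24.5% (BMH-21) and 35.1% (CX-5461) of all genes. Eomes was the exception with BMH-21, at -1.10 (limma adjusted p = 1e-09), and was among the 5 with CX-5461, at 0.87 (1.8e-06). The 7 fibroblast markers summed to 30.5 to 34.8 CPM in control and to at most 53.4 in any library, and the 7 primitive endoderm markers to 17.5 to 21.1 in control and at most 29.9. Of these, 3 and 6 were tested. At 8 h of BMH-21 the log2 difference was 1.86 for Col1a1 (limma adjusted p = 5.8e-30), 0.07 for Col1a2 (0.77) and -1.41 for Thy1 (1.8e-22). Pdgfra was at 2.01 (limma adjusted p = 2.7e-26), Gata6 at 0.65 (0.00021), Sox17 at 0.27 (0.3), Gata4 at -0.70 (0.0001), Sox7 at -0.89 (2.9e-06) and Dab2 at -1.06 (3.6e-11). The part of these cells or genes in the differences below was not tested, and in bulk RNA fewer cells that express a gene and less of its RNA per cell cannot be told apart.

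Per length of annotated exon, Zfp42 was the most abundant of the 10 in control cells, at a log2 CPM per kilobase of 9.12 ± 0.14 (SD, n = 3). Zfp42 encodes REX1, a zinc finger protein used as a reporter of the naive state, and lies at chr8:43295063-43306980 on the minus strand of GRCm38 (GENCODE M21), with 5 exon blocks. Klf2 followed at 7.77 ± 0.12 on this scale, then Nr0b1 at 6.17 ± 0.09, Esrrb at 6.09 ± 0.07 and Klf4 at 6.00 ± 0.08, where each of these last 3 stood within the SDs of its neighbour in the order. Dppa3 stood at 5.50 ± 0.17, Tbx3 at 4.17 ± 0.06, Klf5 at 4.11 ± 0.01, Tfcp2l1 at 3.79 ± 0.09 and Prdm14 at 3.34 ± 0.06 (SD, n = 3). Tbx3 and Klf5 lay within their spread. Prdm14 was the lowest per length, and its fewest reads in any library were 130, after 4 h of BMH-21.

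The other genes lie at chr8:72319033-72321656 (Klf2, plus strand), chr4:55527143-55532466 (Klf4, minus), chr14:99298691-99315036 (Klf5, plus), chr5:119670669-119684724 (Tbx3, plus) and chr1:13113457-13127163 (Prdm14, minus). Esrrb spans chr12:86361117-86521628, Tfcp2l1 chr1:118627945-118685168, Nr0b1 chrX:86191764-86195947 and Dppa3 chr6:122626410-122630272, all on the plus strand. Values are sums over a gene, so an exon or an isoform was not separated. An antisense gene, Tbx3os1, covers 697 exon bases of Tbx3 from the opposite strand, and the strand setting of the counting is not given in the sources used here, so reads of the pair cannot be told apart. A small nuclear RNA gene, Gm23497, shares 130 exon bases with Tfcp2l1. Zfp42-ps1 on chromosome 15 and Dppa3-ps on chromosome X are processed pseudogenes of members and not rows of the table, so how reads were split between them and Zfp42 or Dppa3 is uncertain.

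The sequence just before the start of transcription is shown for 4 members whose time courses, given below, differed: Zfp42, which fell within 2 h and came part of the way back with CX-5461, Klf2, which was lowest at 2 h with CX-5461 and at 4 h with BMH-21, and Tfcp2l1 and Nr0b1, which fell later. They are RefSeq promoter sequences of GRCm38.p6, 5′ to 3′ on the gene's strand, ending before the first annotated transcript base. Of the 10 members, 6 matched an entry. Capitals mark matches on either strand to 5 short motifs, chosen after the sequences had been read.
Zfp42, chr8:43307010-43307259, minus strand: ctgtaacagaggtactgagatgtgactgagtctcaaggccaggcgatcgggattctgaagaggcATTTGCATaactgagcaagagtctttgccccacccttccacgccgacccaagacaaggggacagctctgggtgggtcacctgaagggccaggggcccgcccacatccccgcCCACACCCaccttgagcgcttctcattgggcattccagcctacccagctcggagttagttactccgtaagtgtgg
Klf2, chr8:72318812-72319032, plus strand: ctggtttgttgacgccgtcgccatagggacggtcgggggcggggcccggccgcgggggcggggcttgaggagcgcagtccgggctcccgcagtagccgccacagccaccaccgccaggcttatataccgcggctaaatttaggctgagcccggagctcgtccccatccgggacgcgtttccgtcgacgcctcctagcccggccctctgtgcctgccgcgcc
Tfcp2l1, chr1:118627695-118627922, plus strand: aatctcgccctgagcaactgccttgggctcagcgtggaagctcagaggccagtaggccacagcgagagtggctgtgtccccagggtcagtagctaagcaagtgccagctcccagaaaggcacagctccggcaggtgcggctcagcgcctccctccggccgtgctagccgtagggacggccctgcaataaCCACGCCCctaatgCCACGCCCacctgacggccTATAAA
Nr0b1, chrX:86191525-86191763, plus strand: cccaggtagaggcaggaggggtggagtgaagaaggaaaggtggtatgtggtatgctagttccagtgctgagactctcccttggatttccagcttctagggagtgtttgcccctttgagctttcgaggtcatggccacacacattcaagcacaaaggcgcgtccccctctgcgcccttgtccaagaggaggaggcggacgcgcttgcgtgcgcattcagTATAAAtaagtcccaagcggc

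The motifs searched were the octamer ATTTGCAT that POU factors such as OCT4 bind, CCACNCCC of the KLF type, AAGGTCA of the ESRRB type, TTCNNNGAA of the STAT type and the TATA box TATAAA. Of 32851 RefSeq promoter windows of 250 bases, 1.6% held the octamer, 15.9% the KLF letters, 4.08% AAGGTCA, 7.02% the STAT letters and 12.4% TATAAA. The Zfp42 window held the octamer, with its first base 186 bases before the RefSeq start site, and 1 KLF match 75 bases before it. In Tfcp2l1 there were 2 KLF matches, 61 and 47 bases before the start, and TATAAA 28 bases before it. The Nr0b1 window held TATAAA 32 bases before the start, and the Klf2 window held none of the 5 motifs. Matches of different motifs did not overlap. These are letters in a window and not sites shown to be bound in these cells.

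**Figure D1:**
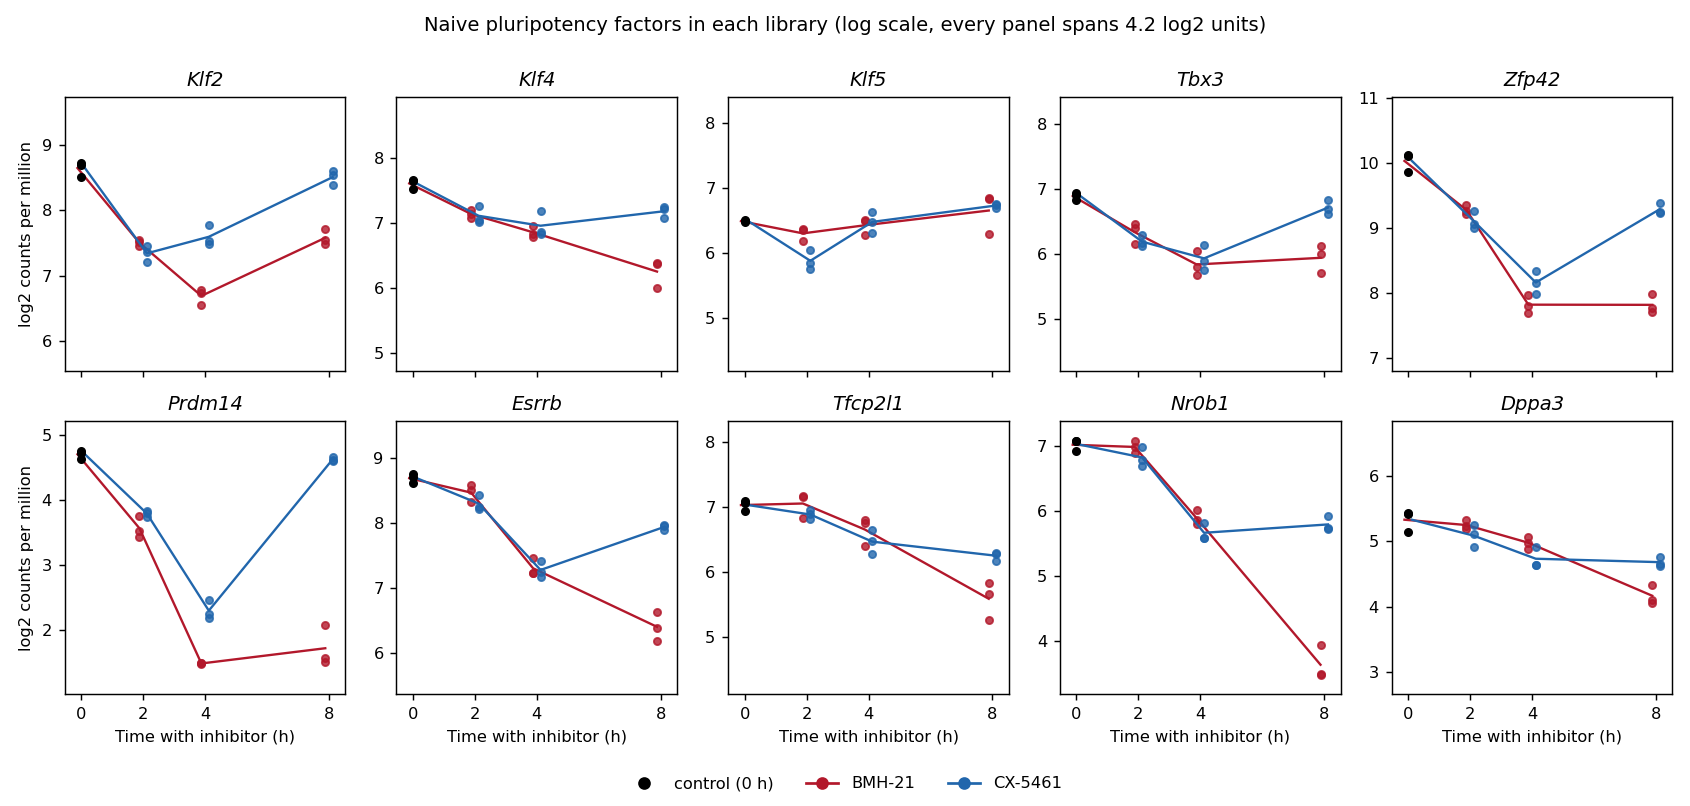
Log2 value of each of the 10 factors in every library (points) and group means (lines) against hours with inhibitor, with control in black, BMH-21 in red and CX-5461 in blue; every panel spans the same number of log2 units. At 8 h the red and blue points of Prdm14 lie at 1.50 to 2.08 and 4.60 to 4.66, and those of Klf5 overlap.

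The first comparison asked which naive factors differed from control after each time of inhibition. After 2 h of BMH-21, 5 of the 10 factors were lower than control and 0 higher (limma adjusted p under 0.05), where 11.2% of all tested genes were lower and 8.48% higher. The 5 were Klf2, Prdm14, Zfp42, Tbx3 and Klf4. After 4 h, 9 of 10 were lower and 0 higher, against 44.9% and 22.1% of all genes, and after 8 h the count was again 9 and 0, against 56.9% and 24.5%. With CX-5461 it was 7 lower and 0 higher at 2 h (20.5% and 7.45% of all genes), 9 and 0 at 4 h (51.2% and 19.8%) and 6 and 0 at 8 h (14.3% and 35.1%). Klf5 was the factor not called at 4 h with either inhibitor and at 8 h of BMH-21. With median-ratio factors Klf5 was called higher at 4 h of CX-5461 (0.24, limma adjusted p = 0.0049), beside 9 factors that were lower. Under that scaling 4885 of the 14666 genes tested were higher and 5349 lower, against 2899 and 7504 as deposited. All 6 comparisons share the same 3 control libraries.

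The median log2 difference from control over the 10 factors was -0.35, -1.09 and -1.40 at the 3 times of BMH-21, beside -0.07, -0.21 and -0.40 over all genes tested. With CX-5461 it was -0.55, -1.01 and -0.54, beside -0.18, -0.28 and 0.11 over all genes. After centring, the members called at 8 h of CX-5461 were 9 lower and 0 higher, since Klf2, Tbx3 and Prdm14 passed the threshold, and with median-ratio factors 8 were lower. Among the 14666 genes tested, 6550 were lower and 4301 higher in that group after centring. The counts were 5174 and 5158 with median-ratio factors, against 2091 and 5154 as deposited.

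**Figure D2:**
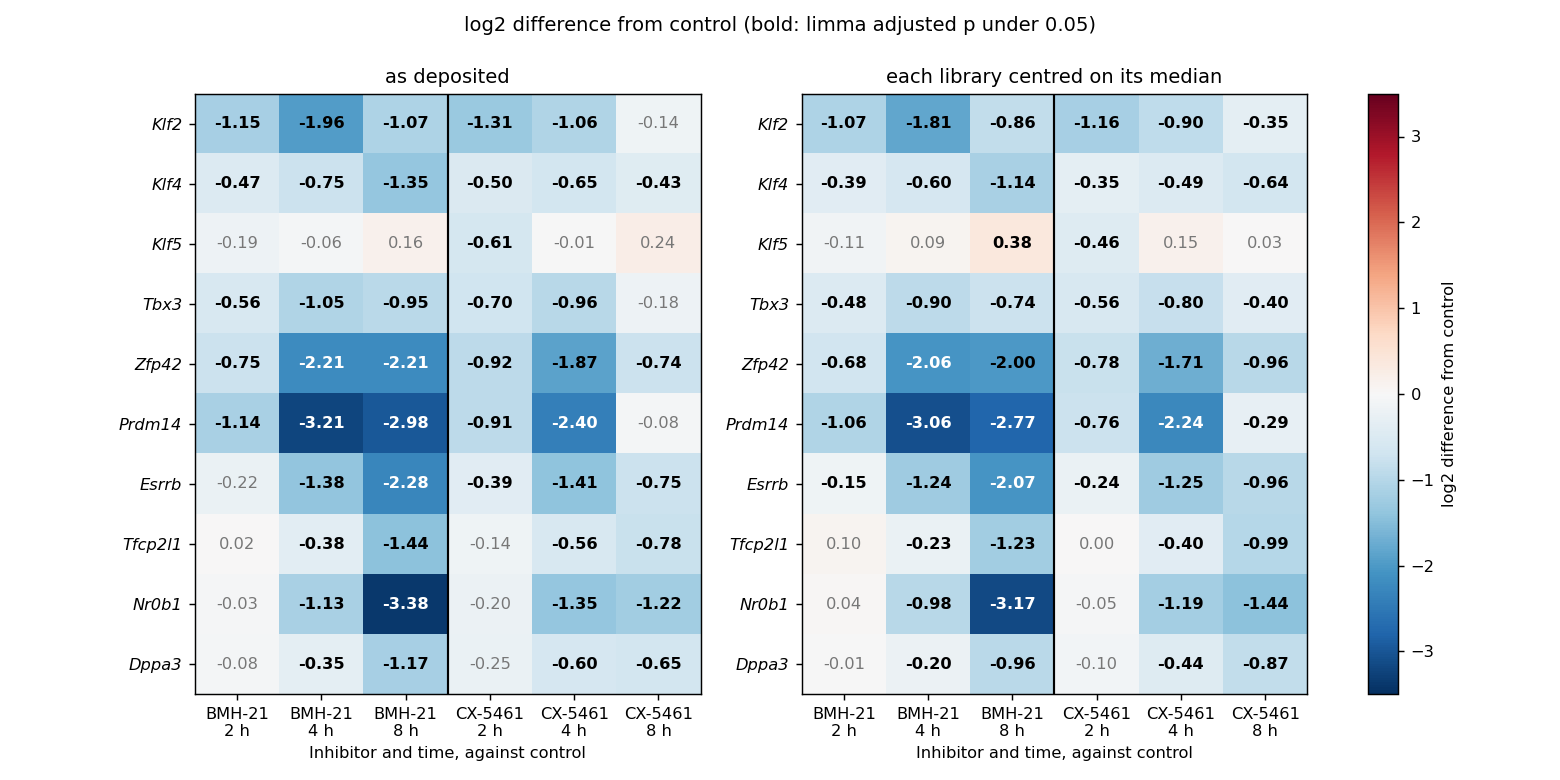
Log2 difference from control of each factor (rows) in the 6 treated groups (columns), as deposited (left) and after centring each library on its median (right), with blue for lower, red for higher and bold where the limma adjusted p was under 0.05. Klf5 at 8 h of BMH-21 is 0.16 on the left and 0.38 on the right, and 3 more factors are bold at 8 h of CX-5461 on the right.

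Klf2, a Krüppel-like factor that helps hold the naive state, was among the members lowered earliest. Its log2 values were 8.70, 8.74 and 8.51 in the control libraries, 7.45, 7.55 and 7.51 with BMH-21 at 2 h, 6.78, 6.54 and 6.74 at 4 h and 7.71, 7.49 and 7.54 at 8 h. With CX-5461 they were 7.45, 7.20 and 7.37 at 2 h, 7.49, 7.77 and 7.53 at 4 h and 8.60, 8.39 and 8.55 at 8 h. Every library of the 2 and 4 h groups lay below the control libraries, while those of 8 h CX-5461 overlapped them. The log2 differences from control were -1.15 at 2 h of BMH-21 (SE 0.10, limma adjusted p = 4e-18), -1.96 at 4 h (1e-36) and -1.07 at 8 h (1.3e-17). For CX-5461 they were -1.31 at 2 h (limma adjusted p = 8.3e-22), -1.06 at 4 h (7.2e-17) and -0.14 at 8 h (0.27), and the last was -0.35 after centring (2.6e-06) and -0.25 with median-ratio factors (0.00012). Among the group means, 2 h of BMH-21 (7.50), 8 h of BMH-21 (7.58) and 4 h of CX-5461 (7.60) stood next to each other, and their libraries overlapped.

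Klf4, a direct target of STAT3 and one of the factors used to reprogram somatic cells, fell less and more slowly with BMH-21. Its control values were 7.65, 7.64 and 7.52, and BMH-21 gave means of 7.13 ± 0.07 at 2 h, 6.85 ± 0.09 at 4 h and 6.25 ± 0.21 at 8 h (SD, n = 3). The CX-5461 means were 7.11 ± 0.14, 6.95 ± 0.19 and 7.18 ± 0.09 (SD, n = 3). All 18 treated libraries lay below the control libraries. The log2 differences ran to -1.35 at 8 h of BMH-21 (SE 0.11, limma adjusted p = 3.8e-23) and to -0.65 at 4 h of CX-5461 (6.6e-08), and the 8 h value of CX-5461 was -0.43 (0.00042).

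Klf5, which shares targets with Klf2 and Klf4 in embryonic stem cells, did not follow them. Its control values were 6.49, 6.50 and 6.48, and those after 8 h of BMH-21 were 6.82, 6.30 and 6.84. The BMH-21 groups at 4 and 8 h thus overlapped the control, with replicate 2 the low library at 8 h. After 2 h of CX-5461 the values were 6.05, 5.85 and 5.75, all below control, a log2 difference of -0.61 (SE 0.11, limma adjusted p = 4.5e-06). The 8 h differences were 0.16 for BMH-21 (limma adjusted p = 0.17) and 0.24 for CX-5461 (0.062). The 3 CX-5461 libraries, at 6.76, 6.73 and 6.70, lay above the control libraries, and the difference passed in a fit of only those groups (limma adjusted p = 0.0052). The BMH-21 value was 0.38 after centring (limma adjusted p = 3.7e-05), 0.52 with median-ratio factors (4.5e-07) and 0.34 without BMH-21 8 h replicate 2 (0.0042), so that in these settings Klf5 was higher than control.

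Tbx3, a T-box factor that lies downstream of LIF, stood at 6.95, 6.91 and 6.83 in control and BMH-21 gave means of 6.34 ± 0.16 at 2 h, 5.84 ± 0.19 at 4 h and 5.94 ± 0.21 at 8 h (SD, n = 3). The CX-5461 means were 6.19 ± 0.09, 5.94 ± 0.19 and 6.72 ± 0.11 (SD, n = 3). The 4 h libraries of both inhibitors and the 8 h libraries of BMH-21 overlapped. Tbx3 fell by 1.05 on the log2 scale at 4 h of BMH-21 (SE 0.11, limma adjusted p = 1.7e-15) and by 0.96 at 4 h of CX-5461 (1.9e-13). The 8 h differences were -0.95 for BMH-21 (limma adjusted p = 1.2e-13) and -0.18 for CX-5461 (0.17), and the latter passed the threshold after centring at -0.40 (2.5e-07). Because Tbx3os1 overlaps it, these values may hold reads of both genes.

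Zfp42 had control values of 10.12, 10.10 and 9.86. At 2, 4 and 8 h the BMH-21 libraries held 9.21, 9.35 and 9.26, then 7.97, 7.69 and 7.80, then 7.98, 7.71 and 7.77. With CX-5461 they held 9.26, 8.99 and 9.06, then 7.99, 8.34 and 8.15, then 9.38, 9.23 and 9.24. All treated libraries were below control, and the BMH-21 libraries of 4 and 8 h covered nearly the same range. Zfp42 fell 4.62-fold by 4 h of BMH-21 (log2 difference -2.21, SE 0.10, limma adjusted p = 6.8e-42) and 3.65-fold by 4 h of CX-5461 (-1.87, 4.3e-35). The 8 h differences were -2.21 for BMH-21 (limma adjusted p = 3.5e-42) and -0.74 for CX-5461 (4.3e-10).

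Prdm14, a PR domain protein that restrains FGF signalling and the DNA methyltransferase genes, moved in the same order and further. Its log2 values were 4.72, 4.74 and 4.63 in control, 3.42, 3.74 and 3.52 with BMH-21 at 2 h, 1.47, 1.49 and 1.49 at 4 h and 2.08, 1.58 and 1.50 at 8 h. With CX-5461 they were 3.74, 3.83 and 3.79, then 2.19, 2.46 and 2.24, then 4.66, 4.60 and 4.60. The 4 h groups were far below control with both inhibitors, and the 8 h CX-5461 libraries overlapped the control range. Prdm14 fell 9.27-fold by 4 h of BMH-21 (log2 difference -3.21, SE 0.12, limma adjusted p = 7.8e-50) and 5.28-fold by 4 h of CX-5461 (-2.40, 1.7e-37). At 8 h the differences were -2.98 (limma adjusted p = 8.3e-47) and -0.08 (0.64). The CX-5461 value passed the threshold after centring, at -0.29 (0.014), and not with median-ratio factors, at -0.19 (0.095).

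Esrrb, an orphan nuclear receptor of the oestrogen receptor type whose gene is held down by Tcf7l1 when WNT signalling is low, fell with both inhibitors by 4 h and further with BMH-21 by 8 h. Its values were 8.71, 8.74 and 8.61 in control, 8.32, 8.58 and 8.50 with BMH-21 at 2 h, 7.46, 7.23 and 7.23 at 4 h and 6.63, 6.19 and 6.40 at 8 h. With CX-5461 they were 8.43, 8.25 and 8.22, then 7.17, 7.42 and 7.24, then 7.95, 7.90 and 7.97. The 4 h groups of the inhibitors overlapped, and the 8 h groups were on opposite sides of them. The 4 h differences from control were -1.38 for BMH-21 (SE 0.11, limma adjusted p = 4.1e-24) and -1.41 for CX-5461 (1.5e-24). At 8 h Esrrb was 4.87-fold lower with BMH-21 (-2.28, limma adjusted p = 1e-42) and 1.68-fold lower with CX-5461 (-0.75, 6.6e-10). At 2 h it was called with CX-5461 (-0.39, limma adjusted p = 0.0028) and not with BMH-21 (-0.22, 0.13), where centring gave -0.15 (0.012).

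Tfcp2l1, a CP2-family factor induced by LIF through STAT3, was slower. Control libraries held 7.07, 7.09 and 6.94, and those of 2 h BMH-21 held 6.83, 7.18 and 7.16. The values were 6.81, 6.76 and 6.40 after 4 h and 5.84, 5.27 and 5.67 after 8 h of BMH-21, and 6.95, 6.89 and 6.82, then 6.28, 6.66 and 6.48, then 6.30, 6.18 and 6.29 with CX-5461. The 2 h groups overlapped the control, and the 8 h groups lay below it without touching each other. The log2 difference was 0.02 at 2 h of BMH-21 (limma adjusted p = 0.92), -0.38 at 4 h (0.0023) and -1.44 at 8 h (2e-23), with an SE of 0.11. For CX-5461 it was -0.14 (limma adjusted p = 0.3), -0.56 (6.7e-06) and -0.78 (2e-09). The 4 h call of BMH-21 was lost without BMH-21 4 h replicate 3 (-0.25, limma adjusted p = 0.07).

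Nr0b1, also called Dax1, encodes a nuclear receptor without a classical DNA-binding domain that partners with OCT4 and ESRRB. It was 10.4-fold lower than control at 8 h of BMH-21, the largest difference among the 10 factors as deposited and after centring. With median-ratio factors it was -3.02 on the log2 scale, next to -3.03 for Prdm14 at 4 h of BMH-21. Its log2 values were 7.07, 7.07 and 6.92 in control, 6.89, 7.08 and 6.99 with BMH-21 at 2 h, 6.01, 5.80 and 5.87 at 4 h and 3.94, 3.50 and 3.49 at 8 h. With CX-5461 they were 6.99, 6.70 and 6.79, then 5.60, 5.82 and 5.59, then 5.93, 5.73 and 5.74. The 2 h libraries overlapped the control with both inhibitors, the 4 h and 8 h groups lay below it, and the 4 and 8 h CX-5461 groups overlapped each other. The differences from control were -0.03 (limma adjusted p = 0.88), -1.13 (4.4e-17) and -3.38 (9.3e-58) for 2, 4 and 8 h of BMH-21, with an SE of 0.11. Those for CX-5461 were -0.20 (limma adjusted p = 0.16), -1.35 (9.5e-22) and -1.22 (6.2e-19).

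Dppa3, or Stella, a maternal factor that protects DNA methylation in the zygote, held 5.42, 5.44 and 5.14 in control. The BMH-21 means were 5.25 ± 0.07, 4.98 ± 0.10 and 4.16 ± 0.15 (SD, n = 3), and the CX-5461 means 5.09 ± 0.17, 4.73 ± 0.16 and 4.68 ± 0.08. No 2 h group was apart from the control, and the 4 and 8 h CX-5461 means differed by less than their SD. The 8 h differences were -1.17 for BMH-21 (SE 0.11, limma adjusted p = 6.8e-18) and -0.65 for CX-5461 (3.2e-07). At 4 h it was -0.35 (limma adjusted p = 0.0039) and -0.60 (1.6e-06), and the BMH-21 value missed the threshold with median-ratio factors, at -0.17 (0.077).

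The inhibitors were then compared with each other at the same dose and time, which asks whether the factors responded alike to both. At 2 h, 1 of the 10 factors differed, higher with BMH-21 (2.47% of all genes were higher and 1.52% lower). It was Klf5, at a log2 difference of 0.42 (SE 0.11, limma adjusted p = 0.01), and the call held without replicate 1 of either group but was lost in the other 4 fits that left out 1 library (0.36 to 0.40, limma adjusted p from 0.068 to 0.13) and without the variance trend. The other 9 differences at 2 h lay between -0.23 and 0.17 with an SE of 0.10 to 0.12. At 4 h, 3 factors were lower with BMH-21 and 0 higher, where 8.49% of all genes were lower and 9.35% higher. They were Klf2 (-0.91, limma adjusted p = 5.2e-12), Prdm14 (-0.81, 1.5e-07) and Zfp42 (-0.34, 0.012), and the call of Zfp42 was lost without BMH-21 4 h replicate 2 (-0.28, 0.091) or CX-5461 4 h replicate 2 (-0.25, 0.087), and in a fit of only the groups compared (-0.34, 0.064). The other 7 lay between -0.10 and 0.25. After centring 6 factors differed at 4 h, 4 lower with BMH-21 and 2 higher, the latter Nr0b1 (0.22) and Dppa3 (0.24). Among the 14666 genes tested, 2707 were then lower with BMH-21 and 4012 higher, against 1245 and 1372 as deposited.

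At 8 h, 9 of the 10 factors were lower with BMH-21 than with CX-5461 and 0 higher, where 67.2% of all genes were lower and 12% higher. The differences were -2.90 for Prdm14 (SE 0.12, limma adjusted p = 6.7e-44), -2.15 for Nr0b1 (6.4e-37), -1.54 for Esrrb (8e-27) and -1.47 for Zfp42 (5e-26). Klf2 and Klf4 differed by -0.93 each (limma adjusted p = 4.3e-14 and 1.9e-13), Tbx3 by -0.77 (8.1e-10), Tfcp2l1 by -0.66 (1.2e-07) and Dppa3 by -0.52 (2.2e-05). The median difference over all genes at 8 h was -0.48, which the value of Dppa3 barely exceeded. After centring the differences were -2.47 for Prdm14, -1.73 for Nr0b1, -0.34 for Tbx3 and -0.23 for Tfcp2l1, all past the threshold, and -0.09 for Dppa3, whose limma adjusted p was 0.37. Klf5 differed by -0.08 as deposited (limma adjusted p = 0.52), by 0.35 after centring (0.00013) and by 0.39 with median-ratio factors (3.5e-05).

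From 4 to 8 h of BMH-21, 1 factor rose and 5 fell (18.6% of all genes were higher and 37.8% lower). Klf2 rose by 0.89 (SE 0.10, limma adjusted p = 8e-13), and the value was 0.95 when centred and 1.07 when median-ratio factors were used. The 5 that fell were Nr0b1 (-2.25, limma adjusted p = 5.8e-38), Tfcp2l1 (-1.06, 1.1e-14), Esrrb (-0.90, 8.5e-13), Dppa3 (-0.81, 5.1e-10) and Klf4 (-0.60, 7.5e-07). Zfp42 differed by 0.00 and Tbx3 by 0.10, short of the threshold, and Prdm14 and Klf5 by 0.23 each. With median-ratio factors these 4 were called higher, so that 5 factors were higher and 5 lower. Among the 14666 genes tested, 5380 were then higher and 4770 lower, against 2726 and 5541 as deposited.

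From 4 to 8 h of CX-5461, 6 factors rose and 0 fell, where 58.8% of all genes were higher and 4.85% lower. The rises were 2.32 for Prdm14 (limma adjusted p = 3.1e-34), 1.12 for Zfp42 (7.3e-18), 0.92 for Klf2 (3.1e-13), 0.78 for Tbx3 (1.7e-09), 0.66 for Esrrb (4.7e-08) and 0.25 for Klf5 (0.04). The median over all genes was 0.34. The call of Klf5 held without CX-5461 4 h replicate 2 but was lost in the other 5 fits that left out 1 library (0.17 to 0.27, limma adjusted p from 0.063 to 0.23). It was also lost with no filter (limma adjusted p = 0.064) and without the variance trend (0.088), and the value was -0.12 after centring (0.15). After centring Prdm14, Zfp42, Klf2, Tbx3 and Esrrb stayed higher, at 1.95, 0.75, 0.54, 0.41 and 0.29, and 4 factors were lower. Those 4 were Tfcp2l1 (-0.59, limma adjusted p = 7.4e-07), Dppa3 (-0.43, 0.00021), Nr0b1 (-0.25, 0.0035) and Klf4 (-0.15, 0.0051). Among the 14666 genes tested, 3790 were higher and 4687 lower after centring, against 8626 and 712 as deposited.

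Expressed as a share of the log2 fall seen at 4 h, Prdm14 had regained 96.8% by 8 h of CX-5461, Klf2 86.8%, Tbx3 81.2% and Zfp42 60.2%. All shares here are of a log2 difference and not of an expression level. After centring these shares were 86.9%, 60.5%, 50.6% and 43.9%. Esrrb had regained 46.9% as deposited and 23.0% after centring. For Nr0b1 the share was 9.49% as deposited and -20.6% after centring, the negative sign meaning a further fall. Klf4 stood at 34.4% as deposited and -30.7% after centring. With BMH-21 Klf2 had regained 45.4% as deposited and 52.6% after centring.

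**Figure D3:**
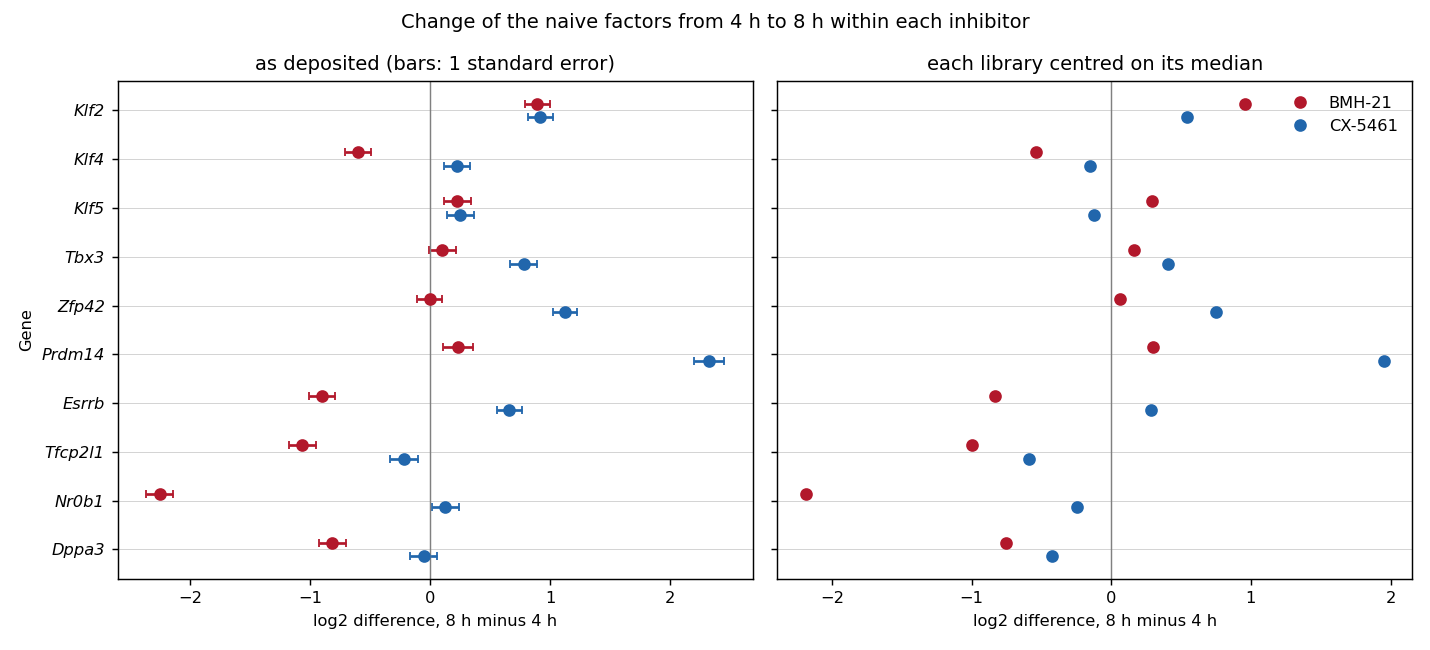
Log2 difference between 8 h and 4 h of each factor within BMH-21 (red) and within CX-5461 (blue), as deposited with bars of 1 standard error (left) and after centring (right). Klf2 lies to the right of 0 with both inhibitors in both panels, while Esrrb lies at -0.90 with BMH-21 and 0.66 with CX-5461.

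The difference between the inhibitors in this change, a contrast of all 4 groups, was past the threshold for 8 of 10 factors, all lower with BMH-21 (61.4% of all genes were lower and 7.98% higher). It was -2.38 for Nr0b1 (SE 0.16, limma adjusted p = 7e-27), -2.09 for Prdm14 (1.1e-19), -1.56 for Esrrb (1e-16) and -1.13 for Zfp42 (7.8e-11). The median over all genes was -0.52. Klf2 and Klf5 were at -0.02 and -0.03 as deposited, both with a limma adjusted p of 0.89, and at 0.41 each after centring (6e-05 and 0.0012).

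The 10 factors fell into time patterns that the plot of correlations shows. Over the 7 group means Tfcp2l1 and Dppa3 had a Pearson r of 0.99, Tfcp2l1 and Nr0b1 of 0.98, Nr0b1 and Dppa3 of 0.97 and Esrrb and Nr0b1 of 0.95. Zfp42 and Prdm14 had 0.96, Tbx3 and Prdm14 0.94, Tbx3 and Zfp42 0.93 and Klf2 and Tbx3 0.89. Klf2 and Tfcp2l1 had 0.01. Klf5 had negative values with 7 of the other 9 factors, down to -0.61 with Tfcp2l1. After centring it was negative with 8 of 9, down to -0.80 with Nr0b1, and its value with Tbx3 moved from 0.17 to -0.30. The points share the control group and the scaling of their libraries, so these values are a description over 7 means.

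**Figure D4:**
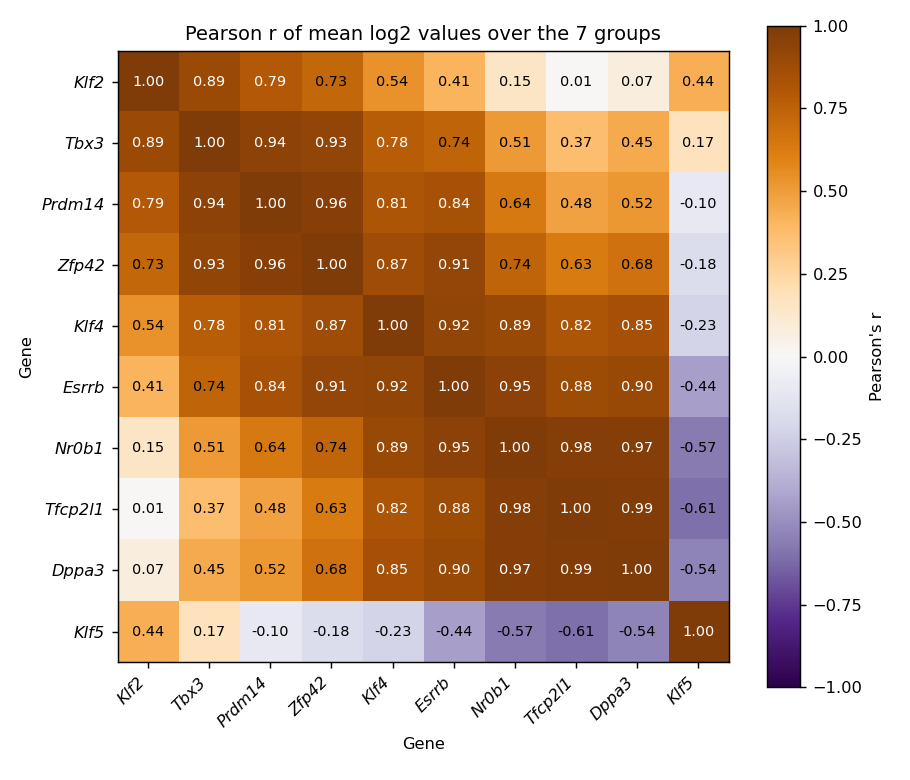
Pearson's r between the mean log2 values of each pair of factors over the 7 groups, with brown for positive and purple for negative values. The values among Tbx3, Prdm14 and Zfp42 are 0.93 to 0.96, those among Nr0b1, Tfcp2l1 and Dppa3 are 0.97 to 0.99, and the last column, Klf5, is mostly negative.

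The other genes whose 7 group means were most like each factor were listed by Pearson's r among 13674 genes that are no member. For Esrrb they were Naf1 (0.999), which encodes an assembly factor of box H/ACA ribonucleoproteins, and Bend3 (0.999). For Nr0b1 they were Gpd2 (0.999), a mitochondrial glycerol phosphate dehydrogenase, and Pank4 (0.999). Zfp42 had Mmp28 (0.999) and Tmem17 (0.998), Prdm14 had Gpr4 (0.997) and Arf6 (0.997), and Tfcp2l1 had Dnajc7 (0.998) and 2210409E12Rik (0.997). Dppa3 had Lamp3 (0.997) and Eif3e (0.997), Tbx3 had 5830417I10Rik (0.994) and Zfp773 (0.994), and Klf4 had Pdzk1 (0.990) and Trmt1 (0.990). The nearest to Klf2 were Zufsp (0.992) and Zfp217 (0.991), and to Klf5 Zfp473 (0.960) and Pclo (0.960). An r above 0.9 was common: 3319 genes reached it with Esrrb, 2041 with Zfp42 and 1415 with Tfcp2l1, but 323 with Klf2 and 50 with Klf5.

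The core factors Pou5f1, Sox2, Nanog and Sall4 bind beside the naive factors. They were lower in 3, 4 and 4 of 4 cases at the successive times of BMH-21, beside 11.2%, 44.9% and 56.9% of all genes. With CX-5461 it was 3, 4 and 3 of 4, beside 20.5%, 51.2% and 14.3%, and 0 were higher with either inhibitor. Of all genes 8.48%, 22.1% and 24.5% were higher at these times of BMH-21, and 7.45%, 19.8% and 35.1% at those of CX-5461. Under both other scalings the count was 3 at 4 h of BMH-21, where Pou5f1 moved from -0.23 (limma adjusted p = 0.032) to -0.08 after centring (0.14). It was 4 at 8 h of CX-5461, where Sox2 moved from -0.12 (limma adjusted p = 0.33) to -0.34 after centring (8.3e-07). Genes lower among the 14666 tested numbered 6550 (centred) and 5174 (median-ratio) at 8 h of CX-5461, against 2091 as deposited. At 4 h of BMH-21 they numbered 6081 and 5687, against 6592. At 8 h of BMH-21 the differences were -2.13 for Nanog and -1.45 for Sall4, with a list median of -1.32 beside -1.40 for the 10 naive factors. At 8 h of CX-5461 the list median was -0.28 beside -0.54.

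Of 12 other genes associated with the naive state, 4, 11 and 12 were lower with BMH-21 at 2, 4 and 8 h (11.2%, 44.9% and 56.9% of all genes). With CX-5461 7, 12 and 7 were lower (20.5%, 51.2% and 14.3%), and 1 was higher at 8 h (35.1%). At 8 h of BMH-21 Pecam1 (-0.03, limma adjusted p = 0.43) and Tfe3 (-0.004, 0.93) were not called with median-ratio factors. At 4 h of BMH-21 Dppa5a was called neither after centring (-0.08, limma adjusted p = 0.39) nor with median-ratio factors (-0.05, 0.61). With BMH-21 at 8 h, Nr5a2, a nuclear receptor that activates Pou5f1, fell by 2.80 on the log2 scale (limma adjusted p = 2.7e-48). Gbx2, a homeobox target of STAT3, fell by 2.36 (limma adjusted p = 7.4e-39), and Zfp57, which guards imprinted methylation, by 2.14 (7.1e-40). With CX-5461 at 8 h these were -0.40 (limma adjusted p = 0.0016), -0.25 (0.068) and -0.43 (0.00034). Gbx2 was called lower in that group after centring (-0.47, limma adjusted p = 1.1e-06) and with median-ratio factors (-0.37, 3.5e-05), and 10 of the 12 genes were then lower under each scaling. Among the 14666 genes tested, 6550 were lower there after centring and 5174 with median-ratio factors, against 2091 as deposited. The gene higher at 8 h of CX-5461 was Pecam1, at 0.30 as deposited (limma adjusted p = 0.014) and 0.09 after centring.

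Of 13 genes of the upstream inputs, 9 were lower and 3 higher at 4 h of BMH-21, then 9 and 2 at 8 h. With CX-5461 it was 8 and 2 at 4 h, then 4 and 3 at 8 h, where 14.3% of all genes were lower and 35.1% higher. The counts lower at 4 and 8 h of BMH-21 and at 4 h of CX-5461 stood beside 44.9%, 56.9% and 51.2% of all tested genes. The counts higher in these 3 groups stood beside 22.1%, 24.5% and 19.8%. In these 3 groups lower and higher values were thus common outside the list too. After centring 7 were lower and 3 higher at 8 h of CX-5461. In that setting 6550 of the 14666 genes tested were lower and 4301 higher, against 2091 and 5154 as deposited. As deposited, the count at 2 h was 5 lower with BMH-21 and 6 lower with CX-5461, with 0 higher. Of all tested genes 11.2% and 20.5% were lower in these 2 h groups, and 8.48% and 7.45% were higher. Among the receptors of LIF, Lifr stood at -0.87 (limma adjusted p = 1.4e-11) and Il6st, its signalling partner gp130, at -1.24 (1.4e-18) after 4 h of BMH-21, and Stat3 at -0.34 (0.0034). After 4 h of CX-5461 they were at -0.81 (limma adjusted p = 2.2e-10), -1.50 (6.4e-24) and -0.44 (0.00013). Jak1 and Socs3 did not follow them throughout. Jak1 was higher at 4 h of BMH-21 (0.27, limma adjusted p = 0.027) and not called at 4 h of CX-5461 (-0.13, 0.27). Socs3 was lower at 4 h of BMH-21 (-0.39, limma adjusted p = 0.00068) and not called at 4 h of CX-5461 (-0.21, 0.066). It was higher at 8 h of CX-5461 (0.42, limma adjusted p = 0.00038). Bmp4, a ligand, fell by 3.64 at 8 h of BMH-21 (limma adjusted p = 4e-54) and by 0.83 at 8 h of CX-5461 (1.6e-08). Tcf7l1, the repressor of Esrrb, fell by 2.01 (limma adjusted p = 2.1e-36) and by 0.67 (5.1e-08) in the same groups. Smad1, which carries BMP signals, rose by 0.66 (limma adjusted p = 1.1e-07) and 0.61 (2.6e-06).

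Genes of the formative and primed states follow the naive state in development. With BMH-21 5, 10 and 10 of 10 were called lower at 2, 4 and 8 h, and 0 were called higher. The shares of all tested genes lower at these times were 11.2%, 44.9% and 56.9%, and the shares higher were 8.48%, 22.1% and 24.5%. At 8 h of BMH-21 T was called as deposited (-0.60, limma adjusted p = 0.018). It was not called after centring (-0.39, limma adjusted p = 0.065) or with median-ratio factors (-0.25, 0.24). With CX-5461 8, 8 and 4 of 10 were lower, and 2 were higher at 8 h, Pou3f1 (0.46, limma adjusted p = 0.0004) and Fgf5 (0.63, 0.037). Of all tested genes 20.5%, 51.2% and 14.3% were lower at these times of CX-5461, and 35.1% were higher at 8 h. At 8 h of CX-5461 the counts were 7 lower and 1 higher after centring, where Fgf5 was not called (0.42, limma adjusted p = 0.07), and 7 lower and 2 higher with median-ratio factors. The largest differences at 8 h of BMH-21 were those of Foxd3 (-4.12, limma adjusted p = 1.5e-62), Fgf5 (-2.66, 2.7e-17) and Zic2 (-2.64, 3.8e-45). Otx2 was at -1.86 in the 8 h BMH-21 group (limma adjusted p = 1.2e-31) and at -0.21 after 8 h of CX-5461 (0.12). The latter was -0.42 after centring (limma adjusted p = 9.1e-07) and -0.32 with median-ratio factors (3.3e-05), lower than control under both.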

How the data were processed

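Poly(A) RNA of E14 cells was sequenced after directional library preparation, per the labels' protocols. The submitters' processing notes name Trim Galore 0.5.0, TopHat2 2.1.1, R 4.0.5, DESeq2 1.30.1, edgeR 3.32.1, limma 3.46.0 and the build mm10, without their roles or order. The values deposited by the authors are log2 expression for 20900 genes. They gave whole reads to within 1.7e-08 when read as log2 CPM of a scaled library size with an offset of 0.5 reads, and the origin of the scaling factors is not given in the sources used here. The unit is log2, so no count model was used.

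The deposited log2 values were fitted with limma 3.58.1 in R 4.3.3, with 1 mean for each of the 7 groups over 21 libraries and an eBayes variance trend. It covered 14666 genes with a log2 value above 0 in at least 3 libraries, with Benjamini-Hochberg adjustment over all of them, a threshold of 0.05 and two-sided tests. There were 12 comparisons. The 0.5 offset makes differences of low genes look smaller than they are. With 14 residual degrees of freedom and a prior worth 111.5 as deposited, each gene's spread was drawn strongly towards the trend. After centring the prior was worth 8.53, so adjusted p-values as deposited and after centring rest on different estimates of spread. The own SDs of the 10 factors were 0.12 to 0.18, against moderated SDs of 0.13 to 0.15. The fit was tested on simulated data with known changes.

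The members, the gene lists and the tests were chosen with earlier results of these data known, so a list's direction is not independent evidence. All 10 members are named. Each list is given by its counts, and by rule the genes named from it are those with large differences at 8 h. Lifr, Il6st, Jak1, Stat3, Socs3, Smad1, Otx2, Pou3f1, T, Pecam1, Tfe3, Dppa5a, Pou5f1, Sox2 and Eomes fall outside that rule. They were picked after their values were seen. The fibroblast and primitive endoderm markers named at 8 h of BMH-21 are all of those tested, also added after their values were seen. The genes of like pattern are the 2 with the highest r to each member. Replicates of a group all differed by more than sampling noise. Replicate numbers were not used to pair samples. Alternatives were 2 other scalings, no filter and a stricter one, another offset, a replicate block, other variance models, fits limited to the compared groups, and leaving out each library. Gene positions and exon lengths came from GENCODE M21 (GRCm38) and promoters from RefSeq. Figures were drawn with matplotlib 3.10.9.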

Additional observations from a re-analysis of the deposited data

Results flagged for a closer look

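The change from 4 to 8 h differed between the inhibitors, by a limma test of the difference itself, for 8 of the 10 factors. As BMH-21 minus CX-5461 the log2 values were -2.38 for Nr0b1 (limma adjusted p = 7e-27), -2.09 for Prdm14 (1.1e-19), -1.56 for Esrrb (1e-16) and -1.13 for Zfp42 (7.8e-11). They were -0.85 for Tfcp2l1 (limma adjusted p = 2.6e-06), -0.83 for Klf4 (1.5e-06), -0.76 for Dppa3 (1.8e-05) and -0.68 for Tbx3 (9.8e-05). Centring took -0.44 out of this contrast for every gene, and median-ratio factors took out a median of -0.54. After centring the 8 values lay between -1.94 and -0.24, all past the threshold. With median-ratio factors Tbx3 (-0.14, limma adjusted p = 0.11) and Dppa3 (-0.22, 0.12) were no longer past it. The part of the scaling in these differences was not tested beyond these values.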

How the results depend on the processing

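Of 120 member values, 94 kept their direction and side of the threshold after centring and 90 with median-ratio factors. A stricter filter, an offset of 5 reads, voom weights and the replicate number as a block kept all 120, no filter kept 119, no variance trend 118 and a fit of only the groups compared 116. Replicate numbers did not pair the samples: 1 of 63 same-number pairs had a correlation above 0.1, and the block left 9 factors called at 8 h of BMH-21. There were 56 changes of sign, of which 2 were of a value past the threshold as deposited. Those 2 were of Klf5 from 4 to 8 h of CX-5461, at -0.12 (centred) and -0.11 (median-ratio). Some values not past it as deposited were past it with the other sign after rescaling. After centring these included Klf4 and Nr0b1 from 4 to 8 h of CX-5461 (limma adjusted p = 0.0051 and 0.0035) and Klf5 between inhibitors at 8 h (0.00013). The cause of these changes was not tested beyond the rescaling itself.

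Sign changes are given as the centred value and then the median-ratio one. They were 0.042 and 0.049 for Nr0b1 at 2 h of BMH-21, 0.086 and 0.12 for Klf5 at 4 h of BMH-21, 0.15 and 0.24 for Klf5 at 4 h of CX-5461, and 0.002 and 0.038 for Tfcp2l1 at 2 h of CX-5461. Between inhibitors they were -0.044 and -0.073 for Klf4 at 2 h and 0.35 and 0.39 for Klf5 at 8 h. From 4 to 8 h they were 0.060 and 0.17 for Zfp42 with BMH-21, and -0.15 and -0.14 for Klf4 and -0.25 and -0.24 for Nr0b1 with CX-5461. In the difference between inhibitors they were 0.41 and 0.52 for Klf2 and 0.41 and 0.51 for Klf5. With median-ratio factors alone Dppa3 at 2 h of BMH-21 was 0.0015 and Esrrb between inhibitors at 4 h was -0.042.

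Between inhibitors, 2 factors were called at 2 h with median-ratio factors and 0 without the variance trend, and 0 to 1 when 1 library was left out. At 4 h 6 were called after centring and 5 with median-ratio factors. From 4 to 8 h of BMH-21, 10 were called with median-ratio factors. Over all genes tested, those called between inhibitors at 2 h numbered 2208 with median-ratio factors, against 585 as deposited. At 4 h they numbered 6719 (centred) and 6116 (median-ratio), against 2617. In the change from 4 to 8 h of BMH-21 they numbered 10150 (median-ratio), against 8267. Leaving out 1 library changed the sign only of values not past the threshold. Against control the ranges were -0.035 to 0.14 for Tfcp2l1 and -0.085 to 0.016 for Nr0b1 at 2 h of BMH-21, and -0.10 to 0.013 and -0.091 to 0.071 for Klf5 at 4 h of BMH-21 and CX-5461. Between inhibitors they were -0.018 to 0.11 for Klf4 at 2 h, then at 4 h -0.16 to 0.0093 for Klf4, -0.13 to 0.028 for Klf5, -0.051 to 0.095 for Esrrb and -0.20 to 0.0093 for Tbx3, and -0.17 to 0.10 for Klf5 at 8 h. From 4 to 8 h they were -0.083 to 0.073 for Zfp42 with BMH-21 and -0.10 to 0.039 for Dppa3 with CX-5461, and in the difference between inhibitors -0.11 to 0.03 for Klf2 and -0.12 to 0.15 for Klf5. Depth limits Prdm14 most, with 130 to 160 reads in the 4 h BMH-21 libraries.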
